A study of Mus musculus with 10 samples.

Results

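The bone morphogenetic protein (BMP) pathway was examined in the retinal pigment epithelium (RPE) through 10 genes, Bmp4, Bmp2, Bmp7, Bmpr1a, Bmpr1b, Crim1, Id1, Id2, Id3 and Smad6, of the 47729 genes in the count table. They were chosen with results of these same libraries known: the fall of Bmp4 between Nrf2 and control eyes prompted the choice, so for these genes that comparison is given as a description, with no test. RNA was sequenced from 10 libraries of 5 wild-type CD1 mice (an outbred albino stock) at postnatal day 40. The control eye of each mouse received AAV Best1 GFP alone, and the Nrf2 eye received that vector together with AAV Best1 Nrf2, where AAV is an adeno-associated virus that carries a gene into cells. Both vectors drive their gene from the human Best1 promoter, which is active in the RPE, and the delivered Nrf2 is the human coding sequence. The 2 vectors differ in capsid, and the Nrf2 eye received an additional vector with none in its place in the control eye, so the added factor and the added vector cannot be told apart here. RNA was collected from the eyecup after the retina was removed.

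BMPs are secreted ligands of the TGF-beta family. They bind paired type I and type II receptors, which phosphorylate SMAD1, SMAD5 and SMAD9. These join SMAD4 in the nucleus and turn on a short list of response genes, among them the Id genes and the inhibitory Smad6, and secreted antagonists such as noggin hold the ligands away from their receptors. In the eye, BMP signalling takes part in specifying the RPE, and adult RPE is known to make BMP4.

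Library totals ran from 12298404 to 27310638 counts, and every member was tested in the fit across all genes. Nfe2l2, the mouse gene of Nrf2, was measured at 88.7 ± 12.7 CPM (a gene's counts scaled to the library total, which is set to 1e6) in control eyes and at 353 ± 53.6 CPM in Nrf2 eyes (SD, n = 5 each), and its counts can include reads of the human sequence. Of the markers of the labelled cell type, Rpe65 was abundant, at 3492 ± 779 CPM in control eyes, whereas Best1 itself was close to absent, at 0.119 to 1.503 CPM over the 10 libraries. Both eyes of mouse 2 carried the most rod RNA of their groups, with 20097 and 7834 summed CPM over 10 rod genes in the control and Nrf2 eye, against at most 3115 and 502 in the others.

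Of the 3 ligand genes, Bmp4 was lower in the Nrf2 eye of all 5 mice, Bmp2 in 4 and Bmp7 in 3. Of all tested genes 10.9% were lower in all 5 mice. Bmp4 (ENSMUSG00000021835, chromosome 14, 46383520 to 46390669, mm10, minus strand) encodes a BMP ligand. Its level was 243, 161, 189, 261 and 134 CPM in the control eyes of mice 1 to 5 and 103, 58.8, 106, 85.5 and 67.6 CPM in their Nrf2 eyes. Each Nrf2 eye lay below each control eye, a separation in this direction that 2.41% of the 16362 tested genes showed (6.28% in either direction), and Bmp4 was the 1 member whose groups did not overlap. The group values were 198 ± 54.0 and 84.2 ± 20.97 CPM (SD, n = 5 each). The fitted log2 fold change of Bmp4 was -1.24 (SE 0.15), which left 42.4% of the control level, and the difference within a mouse ran from -1.68 in mouse 4 to -0.81 in mouse 3. Leaving out each mouse in turn moved the log2 fold change of Bmp4 only between -1.29 and -1.10.

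The 250 bases before the RefSeq start of Bmp4, the gene whose decrease prompted the choice, are shown in lower case with no capitals, because neither of 2 motifs searched was found in them. The motifs were the GC-rich SMAD box GGCGCC and the core of the antioxidant response element TGACNNNGC, to which Nrf2 binds, both read on each strand. Smad6 is shown beside it because it is the 1 response member in the sequence table whose window holds the second motif, in capitals at 186 bases before the start. The windows are chr14:46390670-46390919 and chr9:64022060-64022309 on GRCm38.p6, both on the minus strand.
Bmp4: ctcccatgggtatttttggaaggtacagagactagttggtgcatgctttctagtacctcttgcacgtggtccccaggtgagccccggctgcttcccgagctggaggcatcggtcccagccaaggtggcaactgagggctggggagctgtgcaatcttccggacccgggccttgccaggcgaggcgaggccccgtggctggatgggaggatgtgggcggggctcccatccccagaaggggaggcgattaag
Smad6: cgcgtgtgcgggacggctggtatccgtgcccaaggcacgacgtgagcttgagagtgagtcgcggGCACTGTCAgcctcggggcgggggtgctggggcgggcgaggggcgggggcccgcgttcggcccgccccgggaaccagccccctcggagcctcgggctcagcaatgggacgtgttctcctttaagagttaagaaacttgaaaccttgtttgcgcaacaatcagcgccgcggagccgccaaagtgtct
A window was found for 7 of the 10 members. The SMAD box occurred in the windows of Id2 and Bmpr1a and the antioxidant core in that of Smad6, and over all 32851 promoter windows of this length 9.59% held the first and 10.2% the second. These matches are letters only, and they do not show that a factor was bound.

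Bmp2 (ENSMUSG00000027358, chromosome 2, 133552159 to 133562885), a ligand closely related to Bmp4, had 166, 120.1, 165, 177 and 67.5 CPM in the control eyes of mice 1 to 5. Its Nrf2 eyes had 83.1, 62.0, 145, 109 and 72.3 CPM in the same order. The groups overlapped, with the Nrf2 eye of mouse 3 above the control eyes of mice 2 and 5. The log2 fold change of Bmp2 was -0.56 (SE 0.20), with lower values in 4 of 5 mice and a difference of 0.01 in mouse 5. Bmp7 (ENSMUSG00000008999, chromosome 2, 172868012 to 172940321), a ligand of another subgroup, had 231, 178, 233, 243 and 159 CPM in control eyes and 134, 130.3, 263, 219.7 and 191 CPM in Nrf2 eyes. The Nrf2 eyes of Bmp7 spanned the whole control range, and its log2 fold change was -0.20 (SE 0.18), lower in 3 of 5 mice, and -0.041 without mouse 1.

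**Figure D1:**
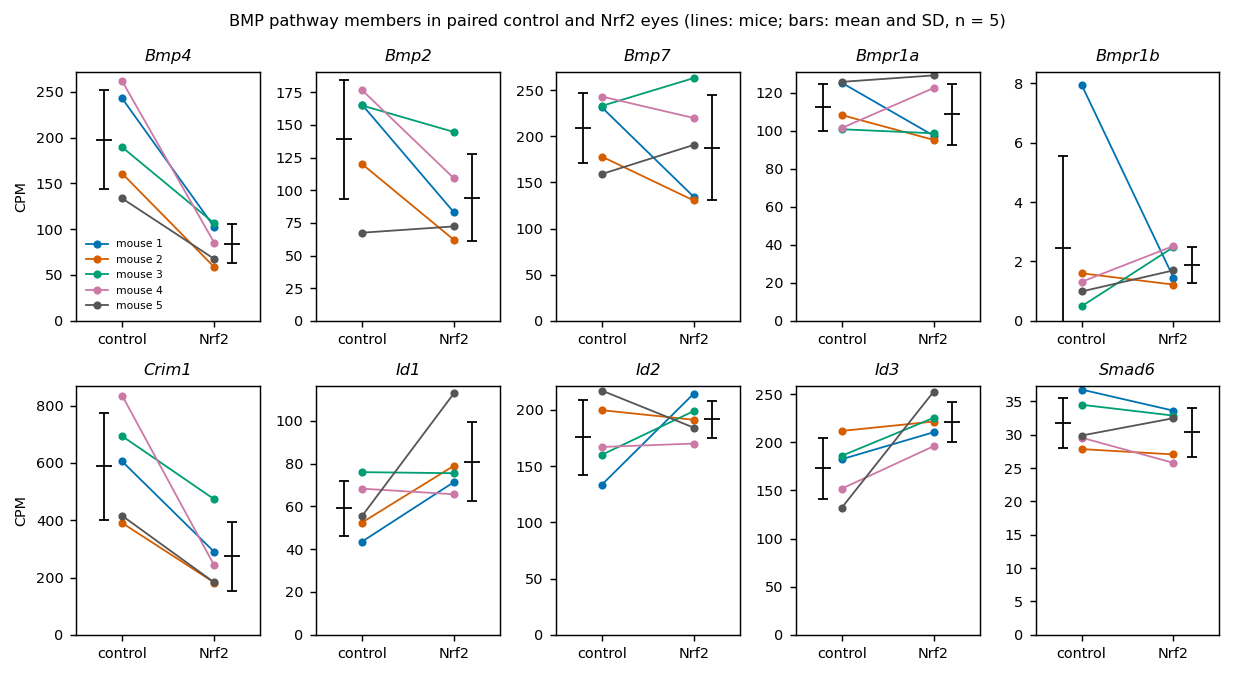
The 10 members in CPM (y axes, each from 0) in the control and Nrf2 eyes of the 5 mice (x axes). Each line joins the eyes of a mouse and black bars give the mean and SD of 5 eyes. Bmp4 and Crim1 were lower in the Nrf2 eye of all 5 mice, Id3 was higher in all 5, and the Bmpr1b control bar is carried by mouse 1 and runs below 0.

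Crim1 had the highest mean CPM of the members, a scale that does not account for gene length, and its log2 fold change was close to that of Bmp4. Crim1 (ENSMUSG00000024074, chromosome 17, 78200248 to 78376592, plus strand) encodes a membrane protein with cysteine-rich repeats that binds BMPs, BMP4 and BMP7 included, and limits their processing and delivery to the cell surface. It had 605, 390.4, 694, 835 and 416 CPM in the control eyes of mice 1 to 5 and 289.8, 183, 474, 243 and 183 CPM in their Nrf2 eyes. The groups overlapped through mouse 3, whose Nrf2 eye lay above the control eyes of mice 2 and 5. The Nrf2 eye was the lower of the pair in all 5 mice, as for 10.9% of all tested genes. The log2 fold change of Crim1 was -1.15 (SE 0.21), or 45.1% of the control level, from -1.85 in mouse 4 to -0.53 in mouse 3. Crim1 overlaps Fez2 on the other strand, with exons in common, so without the strand setting of the counting some of its 82922 counts may belong to Fez2.

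Bmp4 and Crim1 were the 2 of 10 members with an adjusted p-value under 0.05 in edgeR's quasi-likelihood test over all genes. Of all tested genes 6.33% passed, 2.73% lower and 3.6% higher, and nothing is read from the members' count because this contrast chose them. Fitted without the mouse block, Bmp4 alone passed, and with DESeq2 or with the endothelium list as a covariate Bmp2 passed as well. The median log2 fold change was -0.07 over the members and -0.01 over all tested genes.

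Many RPE markers were lower along with Bmp4 and Crim1, but not all. Of 12 RPE markers, 7 were lower and 0 higher by the same edgeR test, and their summed level ran from 22179 to 48469 CPM in control eyes and from 10840 to 29891 CPM in Nrf2 eyes. The eyes lined up in part. The control eye of mouse 4 was the highest of its group in the RPE sum, in Bmp4 and in Crim1, and so was the Nrf2 eye of mouse 3. Ttr, with the highest mean CPM of the list in both groups, weighs most in that sum and was not among the lower markers. The part of the RPE markers in the decrease of Bmp4 and Crim1 was not tested. In bulk RNA fewer RPE cells and less RNA of these genes per cell cannot be told apart. The 7 lower markers were Rpe65 (-2.88), Rgr (-2.87), Lrat (-2.26), Rlbp1 (-1.93), Rdh5 (-1.42), Slc16a8 (-1.18) and Otx2 (-0.63) on the log2 scale. The list median was -0.91, and the 5 that did not pass lay between -0.50 (Krt18) and 0.70 (Best1). Among these 5, Ttr was at 0.0024, with means of 11543 CPM in control and 11751 CPM in Nrf2 eyes. Krt8 was at -0.15 and Mitf at -0.26. The ligands also varied together among control eyes, where mouse 4 was highest and mouse 5 lowest for Bmp4, Bmp2 and Bmp7.

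Neither type I receptor was lower in all 5 mice. Bmpr1a (ENSMUSG00000021796, chromosome 14, 34410734 to 34503341), a widely expressed type I receptor, had 125, 108, 101, 101 and 126 CPM in control eyes of mice 1 to 5 and 97.5, 95.2, 98.7, 123 and 129 CPM in Nrf2 eyes. The groups overlapped over most of their range, with a log2 fold change of -0.07 (SE 0.08) and differences within a mouse from -0.29 to 0.21, and the fitted value was -0.11 when mouse 4 and 0.021 when mouse 1 was left out. Bmpr1b (ENSMUSG00000052430, chromosome 3, 141837136 to 142169425), the other type I receptor of the set, was scarce, with 7 to 156 counts in a library. It had 7.96, 1.60, 0.489, 1.31 and 0.989 CPM in control eyes and 1.46, 1.22, 2.48, 2.52 and 1.70 CPM in Nrf2 eyes. Its highest value came from the control eye of mouse 1, and its log2 fold change of 0.19 (SE 0.74) became 0.86 without that mouse and -0.24 at the other end of the range over mice left out.

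None of the 4 response members was lower to the degree of Bmp4. The Id genes encode proteins that bind and silence basic helix-loop-helix transcription factors, and SMAD signalling activates them directly. Id1 (ENSMUSG00000042745, chromosome 2, 152736251 to 152737410) had 43.6, 52.5, 76.0, 68.3 and 55.5 CPM in the control eyes of mice 1 to 5. In their Nrf2 eyes Id1 had 71.4, 79.1, 75.6, 65.7 and 113 CPM. By these CPM Id1 was higher in the Nrf2 eye of mice 1, 2 and 5 and slightly lower in mice 3 and 4, while on the TMM-scaled log2 CPM, which adjusts for library composition, mouse 3 was at 0.0089. The groups of Id1 overlapped, with a log2 fold change of 0.44 (SE 0.21).

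Id3 (ENSMUSG00000007872, chromosome 4, 136143497 to 136145755) was the response member that was higher in every mouse. It had 182, 212, 186, 152 and 132 CPM in control eyes and 210.4, 222, 225, 196 and 253 CPM in Nrf2 eyes. The groups met at their edges, where the Nrf2 eyes of mice 1 and 4 lay below the control eye of mouse 2. The log2 fold change of Id3 was 0.35 (SE 0.13), with differences within a mouse from 0.05 to 0.85. Leaving out single mice moved it from 0.23 without mouse 5 to 0.47 without mouse 2. Of all tested genes 9.23% were higher in all 5 mice.

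Id2 (ENSMUSG00000020644, chromosome 12, 25093799 to 25097140), the remaining Id gene of the set, had 133, 199.7, 160.1, 167 and 217 CPM in control eyes and 214, 191, 199, 170.0 and 184 CPM in Nrf2 eyes. Its Nrf2 eyes lay within the control range, with a log2 fold change of 0.13 (SE 0.19) and differences of both signs. Mice 2 and 5 were lower, and mouse 4 was higher by CPM but at -0.039 on the TMM-scaled log2 CPM. Leaving out single mice moved it from 0.0077 without mouse 1 to 0.24 without mouse 5. Smad6 (ENSMUSG00000036867, chromosome 9, 63953076 to 64022059), the inhibitory SMAD that BMP signalling induces as a brake on its own receptors, had the smallest SE of the members. Its values were 36.8, 27.8, 34.5, 29.6 and 29.9 CPM in control eyes and 33.6, 27.04, 32.9, 25.8 and 32.5 CPM in Nrf2 eyes. The groups of Smad6 overlapped almost fully, and it was lower in 4 of 5 mice with a log2 fold change of -0.08 (SE 0.05), which ran from -0.11 without mouse 5 to -0.0011 without mouse 4.

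**Figure D2:**
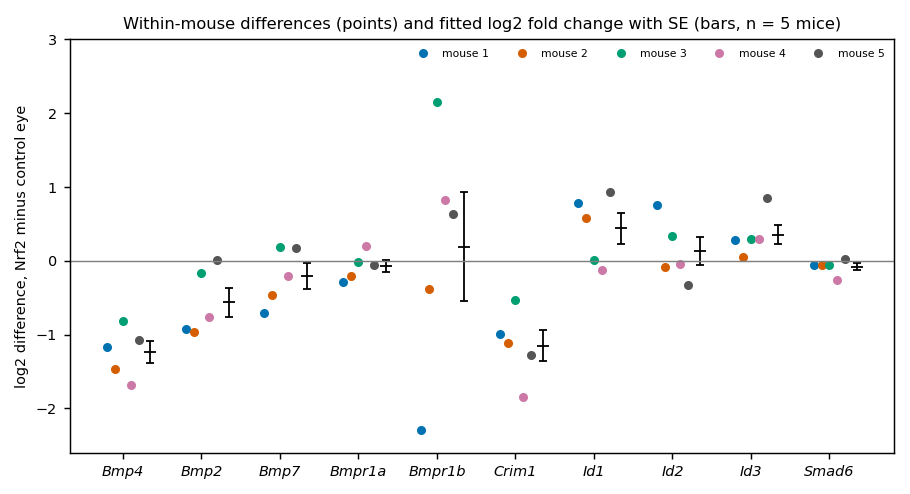
Difference in log2 CPM between the Nrf2 and control eye of each mouse (y axis, points coloured by mouse) for the 10 members (x axis), with the fitted log2 fold change and its SE in black. The points of Bmp4 and Crim1 all lie below 0, those of Id3 all above it, and the points of Smad6 lie between -0.26 and 0.03.

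The response members are also active in cells other than the RPE, endothelium among them. Over 12 endothelial markers the summed level ran from 43.3 to 147 CPM in control eyes and from 72.7 to 156 CPM in Nrf2 eyes. This sum was higher in the Nrf2 eye of every mouse but mouse 4, where it went from 147 to 86.0 CPM. The median log2 fold change of the list was 0.32. Of these markers 0 passed the edgeR test, while Robo4 was at 0 counts in at least 1 library. On the TMM-scaled log2 CPM, Id1 was also lower in mouse 4 alone (-0.12). Id3 was higher in every mouse, and Id2 was lower in 3 mice. Over 12 markers of microglia and macrophages all 12 rose, with sums of 42.3 to 79.0 CPM in control eyes and 422 to 2228 CPM in Nrf2 eyes. The part of either cell type in the values of Id1, Id2 and Id3 was not tested. With the endothelium list as a covariate, the log2 fold changes were 0.37 for Id1, 0.12 for Id2 and 0.31 for Id3. Those of Bmp4 and Crim1 were -1.37 and -1.31. This fit does not give the part of endothelium, and none was made with the microglia and macrophage list.

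Levels per kilobase of exon allow the members to be compared with each other, and the order differed between the groups of eyes. In control eyes Crim1 (98.1 ± 31.4 CPM per kb), Id3 (96.5 ± 17.4), Bmp4 (87.9 ± 24.0) and Id2 (71.97 ± 13.6) led, and neighbours in that order did not differ beyond their spread, with Crim1 above Id3 in only 2 of 5 libraries. Bmp7 (51.9 ± 9.38), Id1 (51.0 ± 11.2) and Bmp2 (39.1 ± 12.8 CPM per kb) followed, again with overlapping ranges. Bmpr1a (17.7 ± 1.95), Smad6 (9.89 ± 1.17) and Bmpr1b (0.414 ± 0.519 CPM per kb) were the lowest, and the ranges of these 3 did not overlap.

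In Nrf2 eyes the Id genes came first. Id3 (124 ± 11.7 CPM per kb) lay above Id2 (78.7 ± 6.79) with no overlap, and Id1 (69.8 ± 16.002) came next. Bmp7 (46.7 ± 14.1), Crim1 (45.8 ± 20.04), Bmp4 (37.5 ± 9.33) and Bmp2 (26.5 ± 9.34 CPM per kb) followed with overlapping ranges. The order of Bmp7 and Crim1 was not settled, since Bmp7 was the higher in only 3 of 5 libraries, and Bmpr1a, Smad6 and Bmpr1b kept the last 3 places (SD, n = 5 eyes for each level).

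**Figure D3:**
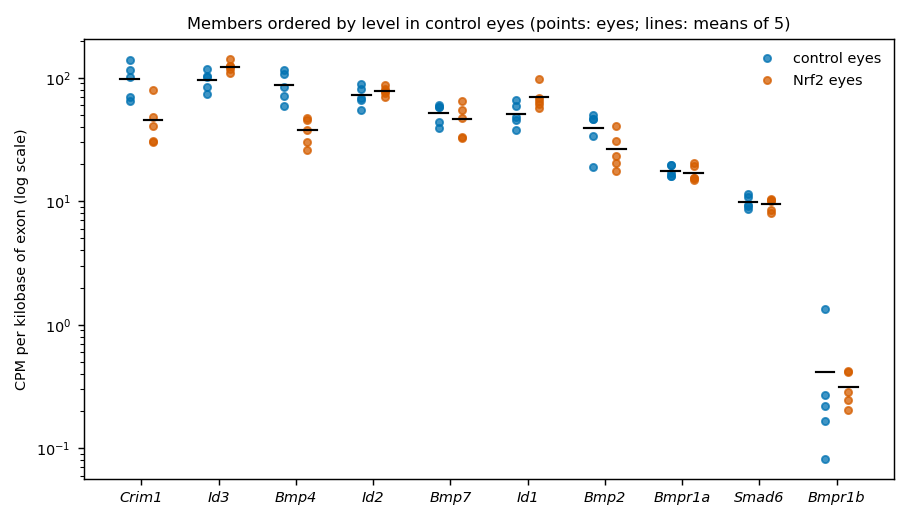
Level of each member in CPM per kilobase of exon (y axis, log scale), ordered by the control mean (x axis), with a point for each eye and lines at the means of 5. Crim1 has the highest control mean, 98.1 CPM per kb, with a range that overlaps that of Id3, and Id3 has the highest Nrf2 mean, 124 CPM per kb.

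The other genes of the pathway were taken from a list of 65 genes by role, of which 49 had enough counts to be tested. Among these, 2 fell and none rose at an adjusted p-value under 0.05, a share of 4.08% beside 6.33% of all tested genes. Both are secreted antagonists. At an unadjusted p-value under 0.05 there were 6 lower and 3 higher, beside 19.1% of all tested genes. DESeq2, which gave adjusted p-values for 53 genes of the list and called 9.25% of all its genes, called 2 lower and 3 higher, the latter being Atoh8, Fst and Kcp, a gene not among the 49. The median log2 fold change of the 49 genes was 0.04.

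Nog (ENSMUSG00000048616, chromosome 11, 89300638 to 89302332) encodes noggin, which binds BMP4 and BMP2 and keeps them from their receptors. It had 105, 38.9, 76.5, 180.4 and 84.7 CPM in the control eyes of mice 1 to 5 and 50.1, 14.8, 24.4, 63.7 and 18.3 CPM in their Nrf2 eyes. The eyes of different mice differed widely, so the groups overlapped, but each mouse was lower in its Nrf2 eye, as for 10.9% of all tested genes. On the log2 scale the decrease of Nog was fitted at -1.58 with an SE of 0.21 (edgeR adjusted p = 0.00333). Without the mouse block Nog was at -1.52 and did not reach the threshold (adjusted p = 0.122).

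Sostdc1 (ENSMUSG00000036169, chromosome 12, 36314139 to 36318452) encodes a secreted antagonist of BMP and Wnt signals. It had 346, 294, 409, 434 and 275 CPM in control eyes and 151, 102, 306, 107 and 134 CPM in Nrf2 eyes of mice 1 to 5. Mouse 3 kept a high value in its Nrf2 eye, and the other 4 Nrf2 eyes lay below all control eyes. The decrease of Sostdc1 was fitted at -1.26 with an SE of 0.28 (edgeR adjusted p = 0.0203), and single mice ranged from -2.09 to -0.40. The call was lost without the mouse block (-1.13, adjusted p = 0.0797) and with the rod covariate (-0.97, adjusted p = 0.0671). It was also lost without mouse 2 (-1.14, adjusted p = 0.0794) and without mouse 5 (-1.29, adjusted p = 0.0594). Per kilobase, Sostdc1 stood at 197 CPM per kb in control eyes, above every member.

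Nog and Sostdc1 were lower in Nrf2 eyes, as were 7 of the 12 RPE markers, but Nog lined up with the RPE sum less closely than Bmp4 did. The control eye of mouse 4 was the highest of its group in Nog, in Sostdc1 and in the RPE sum, and the Nrf2 eye of mouse 3 was the highest of its group in Sostdc1 and in the RPE sum, whereas for Nog it was that of mouse 4. The part of the RPE markers in these 2 decreases was not tested. Fst, the gene of the activin and BMP antagonist follistatin, was chosen after its values were seen because it went the other way, at 1.73 on the log2 scale with an SE of 0.56 (edgeR adjusted p = 0.0824), higher in 4 of 5 mice, and with overlapping groups of 1.89 to 18.9 CPM in control and 12.1 to 44.2 CPM in Nrf2 eyes. The other 8 tested antagonists had log2 fold changes between -0.62 and 0.35.

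**Figure D4:**
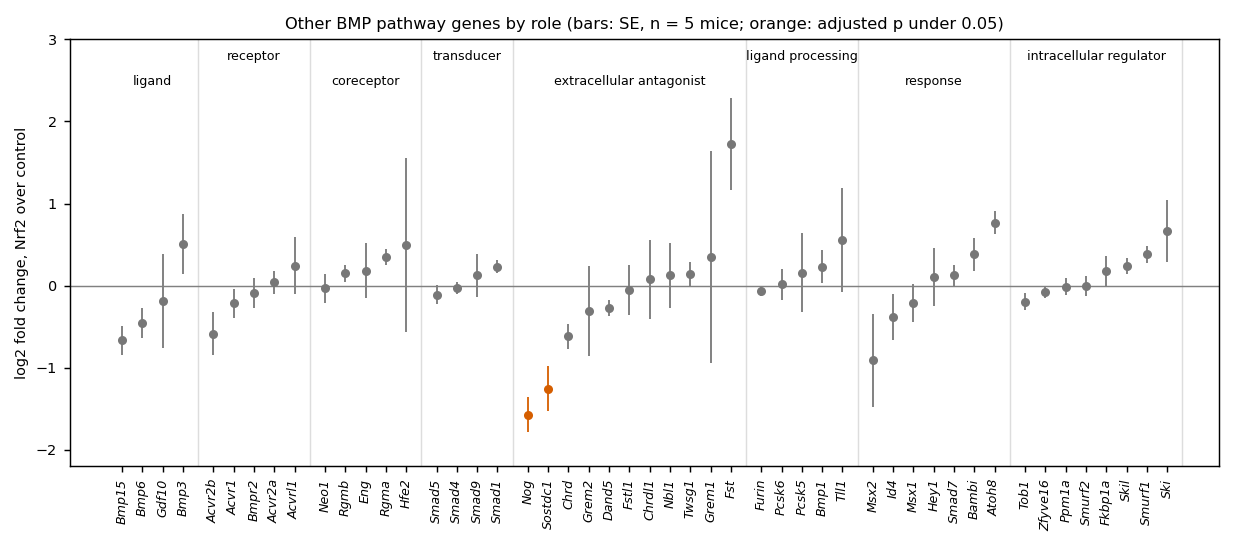
Log2 fold change of the 49 other BMP pathway genes tested (y axis, bars are the SE over 5 mice), grouped by role along the x axis. Nog and Sostdc1, in orange, are the genes with an adjusted p-value under 0.05, at -1.58 and -1.26.

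The other response genes lay on both sides of 0. Of the 7 tested, Id4, Smad7, Bambi, Atoh8, Msx1, Msx2 and Hey1, none passed with edgeR, Atoh8 alone was higher at an unadjusted p-value under 0.05, and DESeq2 called it too. Their median log2 fold change was 0.11. Bambi, a decoy receptor induced by BMP signalling and the most abundant of them, had 39.0 ± 6.94 CPM in control and 51.7 ± 11.7 CPM in Nrf2 eyes (SD, n = 5 each). Bambi was fitted at 0.38 on the log2 scale with an SE of 0.20 (edgeR adjusted p = 0.283). The ends of the range, chosen after the values were seen, were Msx2 at -0.91 (lower in 4 of 5 mice, adjusted p = 0.431) and Atoh8 at 0.77 (adjusted p = 0.0885).

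Of the 14 other ligand genes only 4 were tested, and Bmp6 was the most abundant, in CPM and per kilobase. Bmp6, a ligand of the Bmp7 subgroup that RPE and endothelium make, had 137 ± 35.5 CPM in control and 102 ± 36.7 CPM in Nrf2 eyes (SD, n = 5 each). Bmp6 was fitted at -0.45 on the log2 scale with an SE of 0.18 and did not pass (edgeR adjusted p = 0.167). Bmp6 was lower in 5 of 5 mice, as were 10.9% of all tested genes. The decrease of Bmp6 passed with the endothelium covariate (-0.61, adjusted p = 0.0187), and its size shrank to -0.23 with the rod covariate and to -0.26 without mouse 4. Bmp6 shares exon sequence with Txndc5 on the other strand. The 10 ligand genes that were not tested reached at most 1.18 CPM in any library.

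Among receptors, co-receptors, SMADs and processing enzymes, the genes of highest CPM in each role, a scale not corrected for length, had small log2 fold changes. They were Bmpr2 (log2 fold change -0.09, adjusted p = 0.859), a type II receptor; Neo1 (-0.03, adjusted p = 0.952), which binds RGM co-receptors; Smad4 (-0.03, adjusted p = 0.909), the shared partner SMAD; and Furin (-0.07, adjusted p = 0.784), a protease that cleaves BMP precursors. None of the 5 other receptors, 5 co-receptors, 4 SMADs and 5 processing enzymes tested passed in the edgeR fit without covariates, and DESeq2 called 0. At an unadjusted p-value under 0.05 the type II receptor Acvr2b alone was lower, at -0.59, and with the endothelium covariate it passed. Less abundant genes of these roles, chosen after their values were seen, included the co-receptor Rgma at 0.35 (adjusted p = 0.389). Rgma was higher in 5 of 5 mice, as were 9.23% of all tested genes. The 8 intracellular regulators included Fkbp1a (0.17, adjusted p = 0.662, from 0.036 without mouse 5 to 0.32 without mouse 1, and 0.055 with the endothelium covariate), whose product guards type I receptors, and none passed in that fit, with 0 called by DESeq2. Smurf1, a ubiquitin ligase for BMP SMADs, was alone in being higher at an unadjusted p-value under 0.05, at 0.38, and it passed with the endothelium covariate.

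In the neighbouring TGF-beta and activin branch, 3 of 19 tested genes rose and none fell, 15.8% beside 6.33% of all tested genes. At an unadjusted p-value under 0.05, which 19.1% of all tested genes passed, there were 4 higher and 1 lower. DESeq2, with 9.25% of all its genes called, called 4 higher and 1 lower of 20. Ccn2, the gene of a matrix protein that TGF-beta and YAP induce, had 59.1, 141, 115, 85.0 and 171 CPM in control eyes and 309.6, 436, 249.8, 444 and 371 CPM in Nrf2 eyes of mice 1 to 5. The groups of Ccn2 did not overlap, a separation in this direction that 3.87% of tested genes showed, and the increase was fitted at 1.71 on the log2 scale with an SE of 0.29 (edgeR adjusted p = 0.00807). With the rod covariate Ccn2 was at 1.54 on the log2 scale and did not pass (adjusted p = 0.0555).

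Gdf15, a distant ligand of the family that stress induces, had 1.30 ± 0.511 CPM in control and 7.05 ± 1.84 CPM in Nrf2 eyes (SD, n = 5 each). Its groups were apart, and it rose by a fitted 2.46 on the log2 scale with an SE of 0.33 (edgeR adjusted p = 0.00759). Acvr1c, a type I receptor for nodal and activin, had 0, 1, 0, 12 and 1 counts in the control eyes of mice 1 to 5 and 69, 69, 10, 40 and 39 counts in their Nrf2 eyes. Its values were low, and the Nrf2 eye of mouse 3 lay below the control eye of mouse 4. The fitted value of Acvr1c, 4.51 on the log2 scale (edgeR adjusted p = 0.0205), depends on the prior count. Its SE of 0.59 is that of the log2 CPM differences within a mouse, which ran from 1.97 to 5.04. The call of Acvr1c was lost without the mouse block (adjusted p = 0.0571) and without mouse 2 (0.0804), mouse 3 (0.0530) or mouse 5 (0.0706), and without mouse 4 the gene fell under the filter on low counts. The genes of highest CPM among the ligands, receptors and SMADs did not pass, with log2 fold changes of 0.22 for the ligand Tgfb2, -0.13 for the co-receptor Tgfbr3 and -0.07 for Smad2 (adjusted p = 0.796, 0.783 and 0.803). Tgfb2 was higher in 4 of 5 mice, and its value moved to 0.59 without mouse 1 (adjusted p = 0.107), to 0.070 without mouse 4, to 0.089 without mouse 5 and to -0.048 with the rod covariate.

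**Figure D5:**
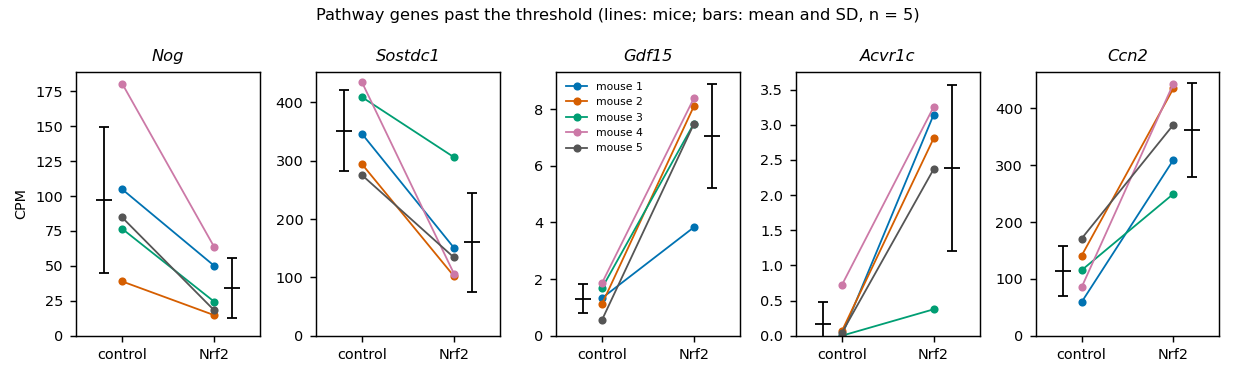
The 5 pathway genes outside the members with an adjusted p-value under 0.05, in CPM (y axes, each from 0) in the control and Nrf2 eyes of the 5 mice (lines), with mean and SD of 5 eyes in black. Nog and Sostdc1 were lower and Gdf15, Acvr1c and Ccn2 higher in the Nrf2 eye of all 5 mice.

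The genes whose pattern lay nearest to that of Bmp4 were found by the root mean square difference of mean-centred log2 CPM over the 10 libraries. The 5 nearest were Tes (0.12), Cspg5 (0.14), Stra6 (0.16), Fap (0.16) and Prkcq (0.16), with log2 fold changes of -1.22, -1.06, -1.14, -1.26 and -1.08. Stra6 encodes the receptor through which RPE takes up retinol. Of the pathway genes, ranks were read only for the other members, Nog and Sostdc1, so further pathway genes may lie nearer. Crim1 ranked 48 with a difference of 0.25, Sostdc1 ranked 143 (0.33), Bmp2 ranked 391 (0.43), Bmp7 ranked 1632 (0.60) and Nog ranked 2069 (0.62), of the tested genes other than Bmp4. Of the response members, Smad6 ranked 2850 (0.66), Id2 8724 (0.83), Id3 10302 (0.89) and Id1 11674 (0.97), and of the receptors Bmpr1a ranked 5014 (0.72) and Bmpr1b 13221 (1.10). The libraries of a mouse and the libraries of a group are not independent, so these distances are a description.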

How the data were processed

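Counts per Ensembl gene were analysed for the RPE of 5 mice, with a control and an Nrf2 eye each. The authors deposited whole-number counts without normalization. They aligned reads with STAR to mm10 with Ensembl transcripts and counted with featureCounts, and in parallel estimated counts with Salmon (0.8.2 in the submitters' processing notes) for DESeq2. Which table was deposited, the strand setting and filters are not given in the sources used here. Amplified reads are not independent molecules, and 3 counts correspond to 0.110 to 0.244 CPM. Symbols, positions and exon lengths came from GENCODE M21 (GRCm38), where 47310 of 47729 identifiers matched, and promoter windows from RefSeq. The table held 0 columns of other samples. Libraries of a group differed by a chi-square of at least 38.2 per degree of freedom, so none was a repeat.

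Eyes were compared with edgeR 4.0.16 (R 4.3.3): filterByExpr, TMM, a quasi-likelihood test blocked by mouse, and p-values adjusted by Benjamini-Hochberg over 16362 genes at 0.05. Adjusted p-values are from this fit unless the sentence names DESeq2 1.42.0 or another alternative, whose own fit then gives them, and the code was tested on simulated data. The animal number in the labels pairs the eyes, and deviations from the group means correlated across genes with r of 0.19 to 0.71 within mice, against a median of -0.08 (-0.42 to 0.28) between mice. For the SE, the SD of the log2 CPM differences (TMM-scaled, prior count 2) of the 5 mice was divided by the square root of 5. The members and all gene lists were chosen with earlier results of these data known. The rule for named genes took the members, Nfe2l2 and Nrf2 targets, other pathway genes past the threshold, the gene of highest mean CPM in each role, the 5 genes nearest to Bmp4, and markers. Fst, Msx2, Atoh8, Rgma, Acvr2b, Smurf1 and Kcp fall outside it and were chosen after their values were seen. Alternatives were no block, RLE scaling, DESeq2, no filter, a rod or an endothelium covariate, and leaving out each mouse.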

Additional observations from a re-analysis of the deposited data

Results flagged for a closer look

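Single eyes lay apart from the remaining 4 of their group in 6 of 70 sets of 5 eyes, by the ratio of the gap to the range, and about 3.5 such sets are due to chance. None of the 6 concerned a member. The control eye of mouse 4 held the top value of Bmpr2 (log2 CPM 5.48, the rest 4.74 to 4.91), and that of mouse 1 the top value of Tgfb2 (log2 CPM 7.13, the rest 6.10 to 6.25). Acvr1c was high in the control eye of mouse 4 (log2 CPM -0.28, the rest -3.29 to -2.62) and low in the Nrf2 eye of mouse 3 (log2 CPM -1.001, the rest 1.26 to 1.75). Gdf15 was low in the Nrf2 eye of mouse 1 (log2 CPM 2.03, the rest 2.87 to 3.03). Nqo1, a target of Nrf2, was high in the Nrf2 eye of mouse 3 (log2 CPM 9.27, the rest 8.69 to 8.81).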

How the results depend on the processing

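All 110 refitted log2 fold changes of the members moved by less than 1 SD of the differences between the eyes of a mouse, and over all alternatives Bmp4 ran from -1.37 to -1.08 and Crim1 from -1.31 to -0.93, while Bmpr1a and Bmpr1b, near 0, changed sign in some. The number of genes past the threshold, 1036 with the mouse block, was 755 with no replicate block, 1812 with DESeq2 and 464 with the rod covariate, and 584 to 857 with a mouse left out (lowest without mouse 2, then 613 without mouse 4 and 683 without mouse 5). The endothelium covariate turned the split of 589 higher and 447 lower into 576 higher and 663 lower. The cause of these shifts was not tested. For the other BMP pathway genes the count of 2 became 0 with no replicate block, 5 with DESeq2 (with Atoh8, Fst and Kcp added), 4 with no filter on low counts, 1 with the rod covariate and 6 with the endothelium covariate (with Acvr2b, Bmp6, Fst and Smurf1 added), and it was 1 to 2 with a mouse left out. It was 1 without mouse 2 (Nog), and without mouse 5 the 2 genes were Nog and Fst. For the TGF-beta and activin genes the count of 3 became 5 with DESeq2, 2 with no replicate block, and 2 to 3 with a mouse left out. The unpaired fit also ended the call of Stra6 (adjusted p = 0.0628). Some genes near 0 changed sign: with the rod covariate Bmpr2 was at 0.13 and Tgfb2 at -0.048, and with a mouse left out Neo1 ran from -0.10 to 0.17 (0.014 without mouse 2), Furin from -0.099 to 0.011, Bmpr2 from -0.13 to 0.12, Smad4 from -0.040 to 0.050 (0.010 without mouse 2), Tgfbr3 from -0.24 to 0.053 and Smad2 from -0.091 to 0.018 (0.014 without mouse 2). Depth limits Bmpr1b most among the members, and Acvr1c, Msx2 and Kcp among the other pathway genes named, since each had a library under 10 counts.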
